A study of Mus musculus with 2 samples.

Results

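Cd34 and Kit, the genes of 2 cell-surface proteins by which immature blood cells are recognised, were followed by gene symbol, 2 of the 31053 genes in the files, in single-cell RNA sequencing of AE9a leukemia. AE9a is a truncated AML1-ETO fusion that drives acute myeloid leukemia in mice. Fetal liver cells of Usp18+/f mice with a Cre transgene had been transduced with a retrovirus carrying AE9a and GFP, and leukemia cells were transplanted again into sub-lethally irradiated C57BL/6 recipients. Both groups therefore carry AE9a, GFP, 1 floxed Usp18 allele and a Cre that is activated by tamoxifen. Adult recipients that had become sick were given oil (labelled Usp18+/f) or tamoxifen (labelled Usp18+/Δ), and their GFP+ Lin− c-Kit+ splenocytes were sorted on day 3 of injections. Each group is 1 library, made from the pooled cells of 3 mice, and tamoxifen, Cre activity and loss of the allele cannot be told apart. The question addressed here is in which cells Cd34 and Kit were detected, and how that differed between the 2 libraries.

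CD34 is a sialomucin of the cell surface that is found on hematopoietic progenitors, on endothelial cells and on mast cells and their precursors, and it can carry the sugars bound by selectins. KIT is the receptor tyrosine kinase for stem cell factor. It signals through the PI3K, MAPK and STAT5 routes, is needed by hematopoietic stem and progenitor cells, and stays on in mast cells while most other blood lineages lose it. Cpa3 encodes a mast cell protease that is also transcribed in early progenitors, and Isg15 encodes a ubiquitin-like protein induced by interferon and removed from its targets by USP18.

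Cd34 (ENSMUSG00000016494) lies on chromosome 1, from 194938819 to 194961279 on the forward strand of mm10, and Kit (ENSMUSG00000005672) on chromosome 5, from 75574916 to 75656722 on the forward strand. Both are protein-coding in GENCODE vM21, with 5 and 8 annotated transcripts. The 3′ end of Cd34 overlaps Gm16897, an antisense gene on the reverse strand from 194955759 to 194976960, which itself had 5 UMIs (unique molecular identifiers, each 1 captured RNA molecule) in the library labelled oil and 4 in the library labelled tamoxifen. No annotated gene overlaps Kit. The 250 bases before the first start site that RefSeq lists for each gene are shown with those of Isg15, because Cd34 and Isg15 were both higher in the library labelled tamoxifen and Isg15 is a known target of interferon. Sequences are from RefSeq (GRCm38.p6), in which both Cd34 and Kit were matched. The start sites differ from the GENCODE gene starts, so that 71 bases of the Kit window (Kit has 2 listed start sites) and 2 of the Cd34 window lie inside the annotated gene. The windows are printed 5′ to 3′ on the strand of the gene, with capitals marking the letters GAAANNGAAA, the core of the interferon-stimulated response element.
Cd34, chr1:194938571-194938820, forward: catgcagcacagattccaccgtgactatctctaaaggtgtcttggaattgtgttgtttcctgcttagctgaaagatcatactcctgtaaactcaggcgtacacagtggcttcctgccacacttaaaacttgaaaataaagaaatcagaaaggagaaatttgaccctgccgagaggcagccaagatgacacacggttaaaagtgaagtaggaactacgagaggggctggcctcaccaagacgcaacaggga
Kit, chr5:75574737-75574986, forward: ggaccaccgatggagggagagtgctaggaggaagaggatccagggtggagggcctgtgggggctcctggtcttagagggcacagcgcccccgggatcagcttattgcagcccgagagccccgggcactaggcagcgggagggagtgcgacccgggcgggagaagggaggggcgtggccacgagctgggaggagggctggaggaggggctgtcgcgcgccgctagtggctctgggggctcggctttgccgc
Isg15, chr4:156200819-156201068, reverse: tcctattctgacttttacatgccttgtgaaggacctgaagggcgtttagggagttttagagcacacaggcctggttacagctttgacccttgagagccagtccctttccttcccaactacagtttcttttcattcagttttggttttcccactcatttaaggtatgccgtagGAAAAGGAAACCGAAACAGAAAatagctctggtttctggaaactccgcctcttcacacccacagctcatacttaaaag
Isg15 holds these letters 3 times in overlapping places, from base -78 to base -57 counted from the start, and 2.98% of the 32851 windows of this length in the table hold them on either strand. The letters were not found in the windows of Cd34 and Kit. Nor were, in any of the 3 windows, TTCNNNGAA (the GAS motif of STAT factors, in 7.02% of windows), TGTGGT (for RUNX factors, in 14.0%) and AGATAA (for erythroid and mast cell factors such as Gata2, in 9.99%), on either strand. A missing match says only that these letters are not in this window. The Kit window was 70.8% G and C with 17 CpG dinucleotides, against 46.4% and 6 for Cd34 and a median of 52.4% and 6 over all windows.

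The library labelled oil held 7281 barcodes and 63690481 UMIs, and the library labelled tamoxifen held 7833 barcodes and 65146263 UMIs. After filtering, 6546 and 7073 cells remained, with medians of 8575.5 and 8023 UMIs, and 15 barcodes occurred in both libraries. There is no replicate library, so all intervals are 95% intervals of counting error and cover no difference between mice or captures. Usp18 RNA went against the genotype labels, at 5.68 UMIs per 1000000 UMIs (CPM) in the library labelled oil and 24.1 CPM in the library labelled tamoxifen. Usp18 is itself induced by interferon, 28 of 29 measured interferon-stimulated genes (ISGs) were at least 1.5-fold higher in the library labelled tamoxifen against 1.17% of all measured genes, and 3′ tags do not tell an intact from a deleted allele. In pairs of values below, the library labelled oil comes first.

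Cd34 was 2.65-fold higher in the library labelled tamoxifen, while Kit was close to equal. Cd34 had 358 UMIs, or 6.17 CPM (5.54 to 6.84), in the library labelled oil and 973 UMIs, or 16.4 CPM (15.3 to 17.4), in the library labelled tamoxifen, with a log2 ratio of 1.41 (1.23 to 1.59). Kit had 5621 UMIs, or 96.8 CPM (94.3 to 99.4), and 6094 UMIs, or 102 CPM (99.9 to 105), with a log2 ratio of 0.081 (0.029 to 0.13). Over the 8879 genes that averaged 5 CPM or more, 104 (1.17%) were at least 1.5-fold higher and 16 (0.18%) at least 1.5-fold lower, and the median log2 ratio was 0.0074. Cd34 ranked 20th from the top of these genes and Kit 2241st. For comparison, Isg15 went from 20.9 to 116 CPM (log2 ratio 2.47) and Cpa3 from 101 to 190 CPM (log2 ratio 0.92).

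Most cells that had Cd34 had a single UMI of it, so its detection depends on depth. With all UMIs of a cell, Cd34 was detected in 302 of 6546 cells, 4.61% (4.12 to 5.15), and in 789 of 7073 cells, 11.2% (10.4 to 11.9). Of these positive cells, 16.2% and 18.5% had 2 or more UMIs, and no cell had more than 3 and 5. Kit was detected in 52.0% (50.8 to 53.2) and 51.7% (50.5 to 52.8) of cells, and up to 8 and 9 UMIs were found in a cell. All cells had been sorted for KIT protein on their surface, so a missing Kit UMI does not by itself mean that a cell lacked the protein.

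To compare classes of cells at equal depth, each cell was thinned to 3000 UMIs at random, which kept 6090 and 6723 cells. Cd34 was then detected in 114 cells, 1.87% (1.55 to 2.24), and 335 cells, 4.98% (4.47 to 5.53), with a log2 ratio of 1.41 (1.11 to 1.71). Kit was detected in 25.7% (24.6 to 26.8) and 25.8% (24.7 to 26.8), with a log2 ratio of 0.0063 (-0.079 to 0.091). At this depth the ratio of Cd34 shares equalled the ratio of its levels, while thinning to 1500 and to 5000 UMIs gave 1.65 (1.25 to 2.05) and 1.12 (0.86 to 1.37), and the interval for Kit spans 0. Averaged over all possible draws of the thinning in place of 1 draw, the log2 ratios were 1.45 for Cd34 and 0.051 for Kit.

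No large class of cells known to lack both genes was available to measure free RNA. Cells with 2 or more UMIs of the macrophage genes C1qa, C1qb and C1qc numbered 11 and 45, with median depths of 11884 and 8991 UMIs, and 0 and 3 of them had Cd34, the latter 6.67% (1.40 to 18.3) against 11.2% of all cells of the library labelled tamoxifen. Their Kit shares were 54.5% and 40.0%. A single cell of the library labelled tamoxifen carried 1319 UMIs of the neutrophil genes, at a depth of 3922 UMIs, and it had no UMI of Cd34 or Kit. Cells with 100 or more haemoglobin UMIs had Cd34 in 1.48% (0.643 to 2.90) of 539 cells and 5.25% (3.52 to 7.5) of 533 cells without thinning, below the share in all cells of each library. The part of free RNA in the shares was not tested.

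The Cd34 difference between the libraries was larger in cells under 6000 UMIs than in deeper cells, and the Kit difference changed its direction with depth. Without thinning, Cd34 was found in 2.41% and 13.4% of cells under 3000 UMIs, in 3.22% and 12.9% of cells with 3000 to under 6000 UMIs, in 4.81% and 10.2% with 6000 to under 9000 UMIs, and in 4.54% and 11.1% with 9000 to under 12000 UMIs. At 12000 to under 18000 UMIs the shares were 5.87% and 10.4%, and at 18000 and over they were 9.04% (5.15 to 14.5) and 9.35% (4.57 to 16.5). The highest share was thus in the deepest bin of the library labelled oil and in the shallowest bin of the library labelled tamoxifen. As a level, Cd34 was 8.24 and 35.6 CPM in cells with 3000 to under 6000 UMIs (log2 ratio 2.11, 1.63 to 2.62) and 5.03 and 8.98 CPM in cells with 12000 to under 18000 UMIs (log2 ratio 0.84, 0.41 to 1.26).

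**Figure D1:**
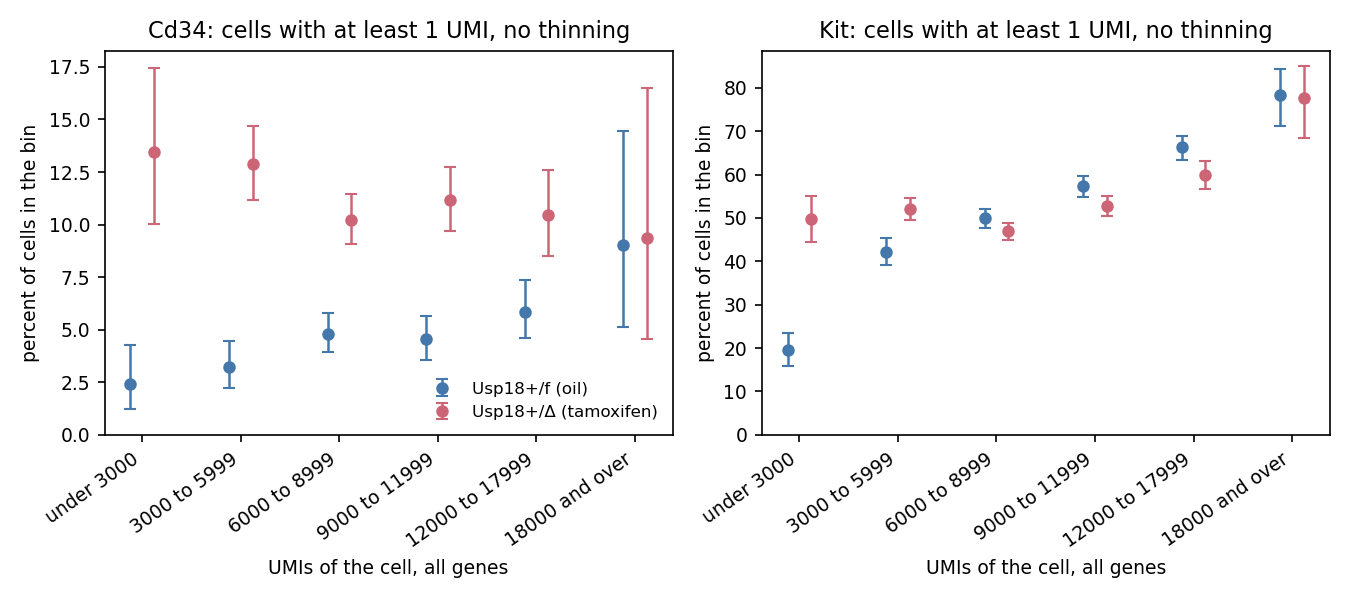
Percent of cells with at least 1 UMI of Cd34 (left) or Kit (right), without thinning, by the total UMIs of the cell, for the libraries labelled oil (Usp18+/f, blue) and tamoxifen (Usp18+/Δ, red). Points are shares and bars exact 95% intervals of counting error. Cd34 is apart between the libraries in every bin but the deepest, at 9.04% and 9.35%, and the Kit shares cross from the bin of 3000 to under 6000 UMIs (42.2% and 52.1%) to the bin of 6000 to under 9000 UMIs (49.95% and 46.9%).

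For Kit, cells under 3000 UMIs had it in 19.5% (16.0 to 23.5) and 49.7% (44.4 to 55.1), and cells with 3000 to under 6000 UMIs in 42.2% (39.2 to 45.3) and 52.1% (49.4 to 54.7). The order turned in deeper cells, with 57.3% (54.8 to 59.7) and 52.7% (50.4 to 55.1) at 9000 to under 12000 UMIs and 66.3% (63.5 to 69.0) and 60.0% (56.7 to 63.2) at 12000 to under 18000 UMIs. The near-equal Kit level over all cells was thus the sum of a higher level in cells with few UMIs (137 and 182 CPM at 3000 to under 6000 UMIs, log2 ratio 0.42, 0.28 to 0.55) and a lower level in cells with many UMIs (88.3 and 76.6 CPM at 12000 to under 18000 UMIs, log2 ratio -0.21, -0.32 to -0.087). Cpa3 was higher in the library labelled tamoxifen in every bin, at 409 and 2915 CPM under 3000 UMIs, 494 and 722 CPM at 3000 to under 6000 UMIs, 117 and 133 CPM at 6000 to under 9000 UMIs, 45.4 and 57.3 CPM at 9000 to under 12000 UMIs, 26.6 and 44.7 CPM at 12000 to under 18000 UMIs, and 18.3 and 29.95 CPM in deeper cells. Cells with under 2% mitochondrial UMIs made up 66.9% and 16.3% of the shallowest bin. Without them, which was tried after seeing the data, the shallowest bin had Cd34 in 4.64% and 15.7% of cells and Kit in 29.1% and 56.7%. The log2 ratio of Cd34 shares under 3000 UMIs was 2.48 with these cells and 1.76 without, against 1.998 and 1.99 at 3000 to under 6000 UMIs, so the order of the 2 shallowest bins depends on them.

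Cells with both Cd34 and Kit were more frequent in the library labelled tamoxifen. Over all draws of the thinning they exceeded the product of the shares of each gene in both libraries. Both were detected in 32 of 6090 cells, 0.525% (0.360 to 0.741), and in 135 of 6723 cells, 2.01% (1.69 to 2.37), with a log2 ratio of 1.93 (1.38 to 2.48). This ratio depends on depth, at 2.52 (1.58 to 3.46) with thinning to 1500 UMIs, 1.07 (0.68 to 1.46) with thinning to 5000 UMIs and 1.18 (0.95 to 1.42) without thinning. Co-detection was 1.09 and 1.56 times the product of the 2 shares in this draw, and 1.27 and 1.48 times over all draws of the thinning. In the draw used here, Cd34 was in 2.05% of Kit-positive and 1.81% of Kit-negative cells of the library labelled oil, and in 7.79% and 4.01% of those of the library labelled tamoxifen. The log2 ratio of Kit-positive over Kit-negative cells was 0.18 (-0.40 to 0.76) and 0.96 (0.65 to 1.26). It was 0.83 and 0.75 in another draw, and 0.49 and 0.83 over all draws, so the value for the library labelled oil, where few cells have Cd34, depends on the draw. Between the libraries, Cd34 was higher in the library labelled tamoxifen among Kit-positive cells (log2 ratio 1.93, 1.39 to 2.47) and among Kit-negative cells (log2 ratio 1.15, 0.78 to 1.51). In another draw these were 1.42 (0.95 to 1.9) and 1.5, and the ratio in Kit-positive cells was 1.11 with thinning to 5000 UMIs and 1.19 without thinning.

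Cells with both genes stood out most in the library labelled tamoxifen. There, Cpa3 was detected in 54.8% (46.0 to 63.4) of cells with both genes, 29.8% (27.6 to 32.2) of those with Kit alone, 26.5% (20.5 to 33.2) of those with Cd34 alone and 16.8% (15.8 to 17.9) of those with neither. Of the same classes, 63.0%, 40.2%, 34.5% and 29.1% were low in both the S phase and the G2 and M phase genes. Median full depths were 5644, 7678, 7900.5 and 8491 UMIs, so the cells with both genes also had the fewest UMIs. The 32 cells with both genes of the library labelled oil had Cpa3 in 34.4% (18.6 to 53.2) and were low in both cycle lists in 40.6% (23.7 to 59.4), at a median of 7166.5 UMIs. In another draw, cells with both genes had Cpa3 in 25.0% and 56.2%, and those with Cd34 alone in 33.8% and 33.5%, so the order of these classes in the library labelled oil was not stable.

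**Figure D2:**
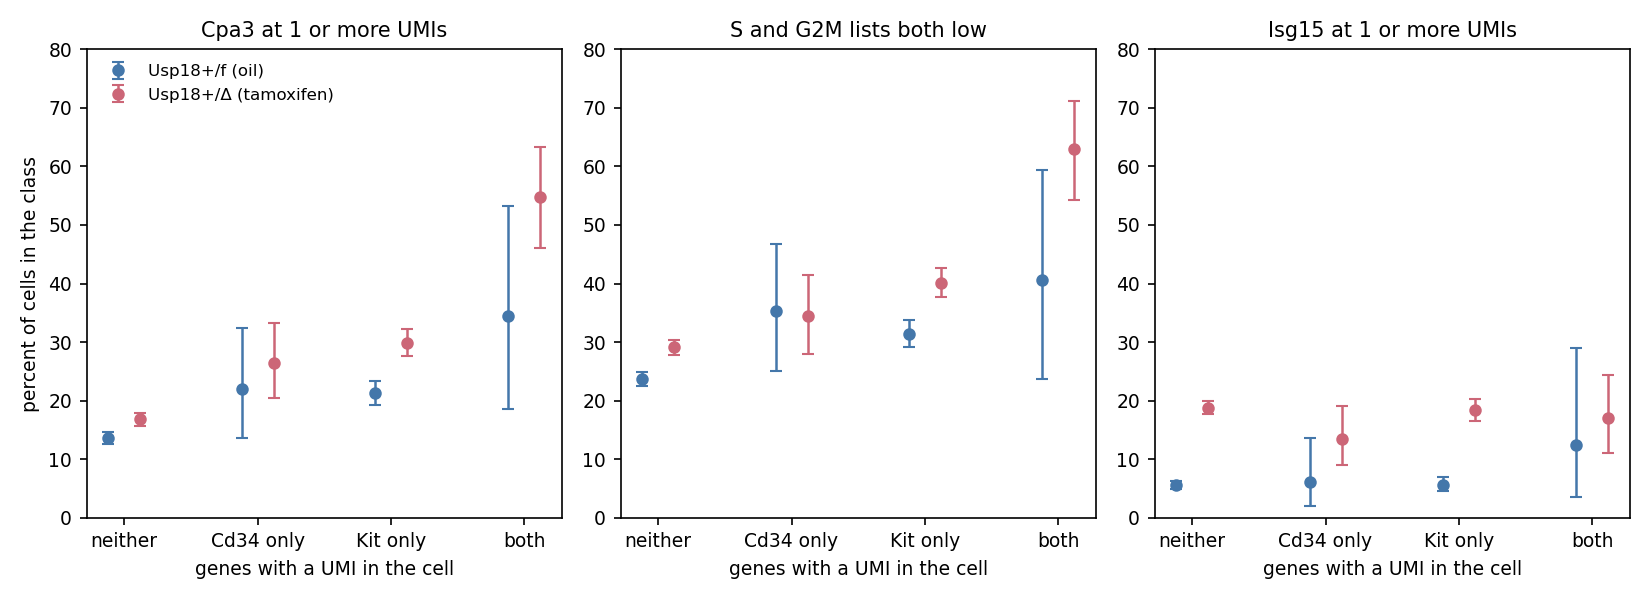
Percent of cells with Cpa3 (left), with low S and G2M list sums (middle) and with Isg15 (right) among cells with neither gene, Cd34 only, Kit only or both, after thinning to 3000 UMIs, for the libraries labelled oil (Usp18+/f, blue) and tamoxifen (Usp18+/Δ, red). Bars are exact 95% intervals of counting error. Cells with both genes of the library labelled tamoxifen are highest for Cpa3 (54.8%) and for low cycling (63.0%), while their Isg15 share (17.0%) lies among those of the other classes.

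Cells low in cycle genes had Cd34 and Kit more often than cells high in G2 and M phase genes, and Cd34 was higher in the library labelled tamoxifen in each cycle class. Cells were split by the sums of 43 S phase and 54 G2 and M phase genes, each above or not above its pooled median (10 and 22 thinned UMIs). Cells low in both were 25.9% of the library labelled oil and 32.6% of the library labelled tamoxifen. Cd34 was found in 2.66% and 7.04% of these, in 2.83% and 5.01% of cells high in S alone, in 1.19% and 3.55% of cells high in G2M alone, and in 1.08% and 3.51% of cells high in both. The log2 ratios between the libraries were 1.40 (0.92 to 1.88), 0.83 (0.26 to 1.40), 1.58 (0.84 to 2.33) and 1.71 (0.96 to 2.45). They moved with depth, to 2.08 in low cells with thinning to 1500 UMIs, to 0.70 in cells high in G2M alone with thinning to 5000 UMIs, and to 1.07 in cells high in both without thinning. Within a library, low cells exceeded cells high in both by a log2 ratio of 1.31 (0.53 to 2.09) and 1.004 (0.59 to 1.42), the former 0.64 with thinning to 1500 UMIs.

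Kit was most frequent in low cells, at 31.3% and 33.2% of cells low in both lists, 23.9% and 22.2% of cells high in S alone, 24.6% and 24.6% of cells high in G2M alone, and 22.6% and 20.2% of cells high in both. Low over high gave log2 ratios of 0.47 (0.30 to 0.64) and 0.72 (0.56 to 0.88). These are shares at equal depth, and low cells had fewer UMIs, with median full depths of 6456.5 and 5992 UMIs against 10168 and 9925 UMIs in cells high in both lists. Without thinning, low over high gave -0.49 and -0.086 for Kit and -0.16 and 0.35 for Cd34, so the order turned in 3 of 4 cases. Between the libraries, the level of Kit in thinned cells was higher in low cells, at 139 and 160 CPM (log2 ratio 0.20, 0.062 to 0.35), and 87.4 and 78.3 CPM in cells high in both lists (log2 ratio -0.16, -0.36 to 0.040).

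Among Cd34-positive cells, genes of the G2 and M phases were lower. Of the 36 genes of that list with at least 50 CPM in each library, 34 were lower in Cd34-positive than in Cd34-negative cells of both libraries, as were 36.3% of all genes. None of the 34 was past 1.5-fold in both libraries, though Top2a was in the library labelled oil. The medians of the list were -0.36 and -0.29 on the log2 scale against -0.0031 and -0.033 over all genes. Mki67, a marker of cycling cells, had log2 ratios of -0.42 (-0.57 to -0.28) and -0.26 (-0.35 to -0.17), and Top2a, the topoisomerase of dividing cells, -0.69 (-0.88 to -0.51) and -0.25 (-0.35 to -0.15). Kit-positive cells differed less in these genes, with medians of 0.0062 and -0.093, and 24 of 27 S phase genes were lower in both libraries, as were 40.8% of all genes, with medians of -0.14 and -0.17 against 0.0024 and -0.013 over all genes.

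Cpa3-positive cells had higher shares of both genes than Cpa3-negative cells, and the Cd34 difference between the libraries was present with and without Cpa3. Cells were split into those with 0 and those with 1 or more thinned UMIs of Cpa3, since most cells had none, and Cpa3 was detected in 15.7% and 21.0% of cells. Cd34 was in 1.66% and 3.91% of cells without Cpa3 (log2 ratio 1.24, 0.88 to 1.6) and in 3.02% and 9.01% of cells with it (log2 ratio 1.58, 1.01 to 2.14), the latter 0.93 with thinning to 5000 UMIs. Within a library, cells with Cpa3 exceeded cells without by a log2 ratio of 0.87 (0.27 to 1.46) and 1.2 (0.90 to 1.51) for Cd34, and of 0.56 (0.41 to 0.70) and 0.81 (0.69 to 0.93) for Kit. The Cd34 value of the library labelled oil was 1.49 in cells with at most 7% mitochondrial UMIs. With all alternatives of the processing, the Cd34 values ran from 0.80 to 1.49 and from 0.92 to 1.58. The Kit values ran from 0.27 to 0.69 and from 0.39 to 1.20.

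Finer Cpa3 classes were set after seeing the data. In cells with a single Cpa3 UMI, Cd34 was at 2.91% (1.64 to 4.76) and 4.36% (2.94 to 6.20), and in cells with 2 or more at 3.15% (1.73 to 5.23) and 13.2% (10.8 to 15.8), with a log2 ratio of 2.06 (1.29 to 2.85). Another draw gave 4.16% and 8.12% with a single UMI and 3.57% and 13.5% with 2 or more. Cells with 2 or more Cpa3 UMIs over cells with none gave log2 ratios of Cd34 of 0.93 (0.13 to 1.72) in the library labelled oil and 1.75 (1.42 to 2.08) in the library labelled tamoxifen, and the difference between these was not tested. With 8 or more Cpa3 UMIs, Cd34 was in 3 of 72 cells, 4.17% (0.868 to 11.7), and in 21 of 144 cells, 14.6% (9.26 to 21.4), and another draw gave 1 of 75 cells, 1.33%, and 21 of 152 cells, 13.8%. Kit went up with Cpa3 in both libraries, from 23.9% and 22.2% of cells without Cpa3 to 47.2% (35.3 to 59.3) and 54.9% (46.4 to 63.2) of cells with 8 or more UMIs. These are shares at equal depth, and cells with more Cpa3 had fewer UMIs. Median full depths were 9246 and 8728.5 UMIs without Cpa3 and 4432 and 4067.5 UMIs with 8 or more. The part of full depth in these shares was not tested. As a level in thinned cells, Kit was 188 (165 to 212) and 236 (216 to 257) CPM in cells with 2 or more Cpa3 UMIs, and 92.5 (87.8 to 97.4) and 88.7 (84.1 to 93.4) CPM in cells without.

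**Figure D3:**
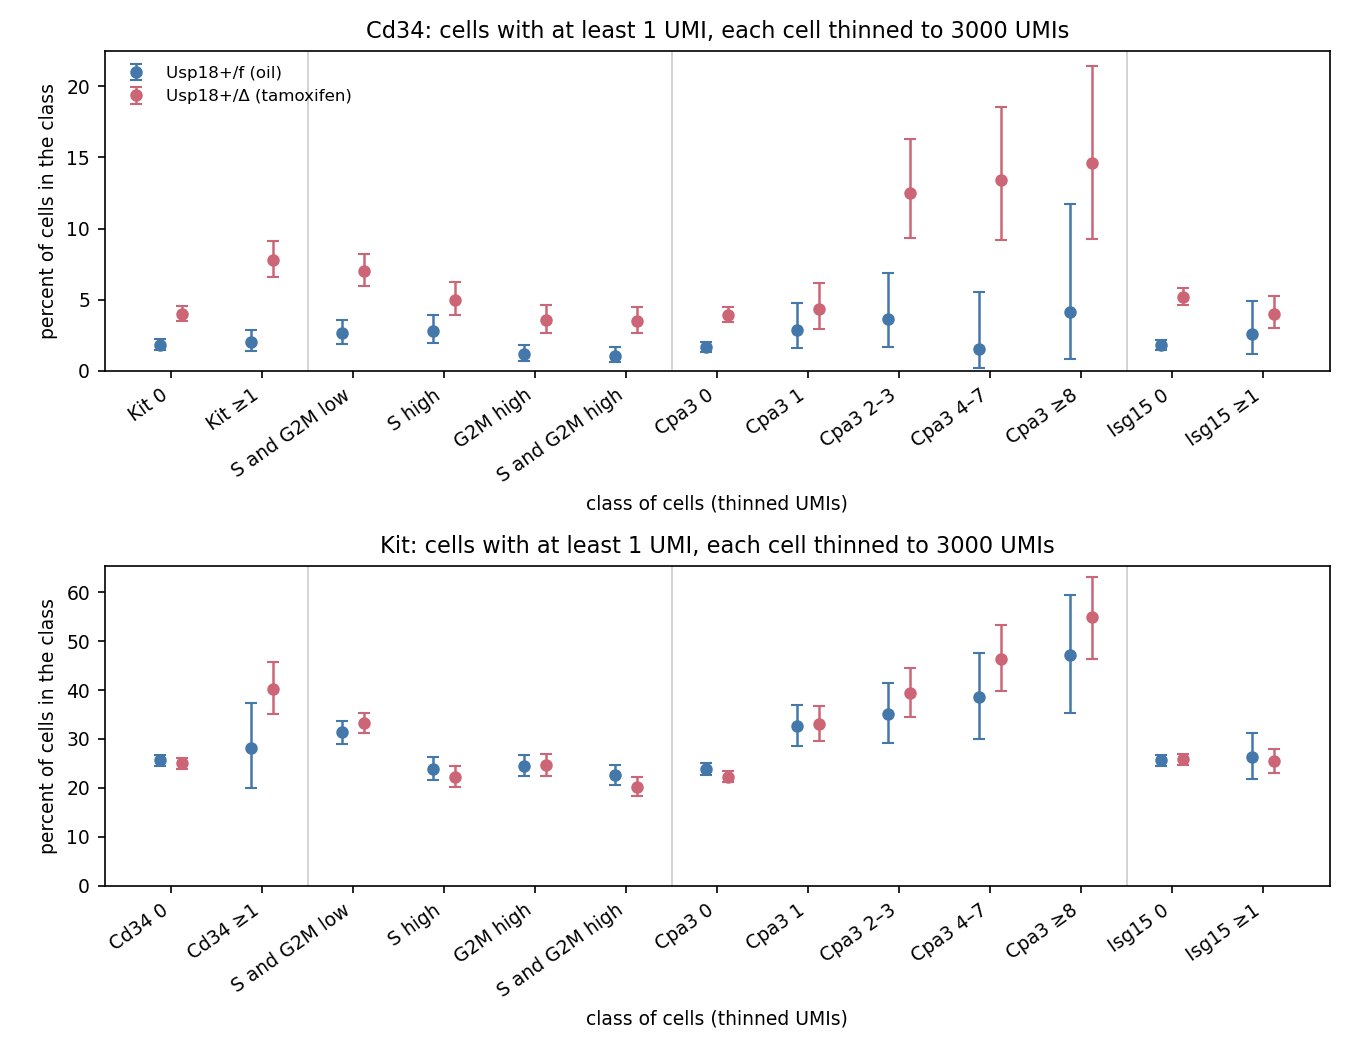
Percent of cells with at least 1 UMI of Cd34 (top) or Kit (bottom) after thinning each cell to 3000 UMIs, by class of cells: the other gene, cell cycle lists, Cpa3 UMIs and Isg15 UMIs. Blue points are the library labelled oil, red points the library labelled tamoxifen, and bars exact 95% intervals of counting error. Cd34 reaches 12.5% to 14.6% in cells with 2 or more Cpa3 UMIs of the library labelled tamoxifen, and Kit goes up with Cpa3 in both libraries.

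When the classes were combined, the highest Cd34 shares of the library labelled tamoxifen were in Cpa3-positive cells with Kit and in Cpa3-positive cells low in cycle genes. In the library labelled oil the highest share by cycle class and Cpa3 was in Cpa3-positive cells high in S alone. Cells with both Cpa3 and Kit had Cd34 in 11 of 337, 3.26% (1.64 to 5.77), and 74 of 551, 13.4% (10.7 to 16.6). Cells with neither had it in 1.64% and 3.56%. Cells with Cpa3 and low in both cycle lists had Cd34 in 2.91% (1.6 to 4.84) and 11.7% (9.60 to 14.0), with a log2 ratio of 2.01 (1.23 to 2.79), and cells without Cpa3 and low in both lists in 2.56% and 4.10% (log2 ratio 0.68, 0.040 to 1.32). In another draw, these ratios between the libraries were 1.57 (0.93 to 2.22) with Cpa3 and 1.27 (0.64 to 1.90) without. Cells with Cpa3 and high in S alone were 154 and 206 in number, and Cd34 was in 6.49% (3.16 to 11.6) and 5.34% (2.70 to 9.35) of them. Another draw gave 3.80% and 12.3% in that last class, so its values are not resolved by these numbers of cells.

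Isg15 and Cd34 were both higher in the library labelled tamoxifen, but within a library their detection in the same cell did not depart from equal shares beyond counting error. Isg15 was detected in 5.62% and 18.5% of thinned cells. Cells without Isg15 had Cd34 in 1.83% (1.5 to 2.21) and 5.20% (4.63 to 5.82), with a log2 ratio of 1.51 (1.19 to 1.83), so the higher Cd34 share was present where Isg15 was not detected. Cells with Isg15 had Cd34 in 2.63% (1.21 to 4.94) and 4.03% (3.00 to 5.28), with a log2 ratio of 0.61 (-0.37 to 1.61) that rests on 9 and 50 positive cells and was 1.70 in another draw, 1.43 with thinning to 1500 UMIs and 1.24 without thinning. Within a library, cells with Isg15 over cells without gave log2 ratios of 0.53 (-0.43 to 1.47) and -0.37 (-0.79 to 0.053) for Cd34, and of 0.038 (-0.23 to 0.29) and -0.022 (-0.18 to 0.13) for Kit. Each of these 4 intervals spans 0 and holds values of either sign. Over all draws, the values for Cd34 were -0.19 and -0.097. As a level from all UMIs, Isg15 was 17.8 CPM in Kit-positive and 21.9 CPM in Kit-negative cells of the library labelled oil (log2 ratio -0.30, -0.50 to -0.097). In the library labelled tamoxifen it was 106 and 119 CPM (-0.16, -0.25 to -0.078). For Cd34-positive over Cd34-negative cells, the log2 ratios of the Isg15 level were -0.48 (-1.32 to 0.25) and -0.17 (-0.35 to 0.011).

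By the sum of the ISG list, Cd34 was in 1.72% and 4.72% of cells with 0 to 1 UMIs, 1.95% and 4.25% with 2 to 4, 1.97% and 5.66% with 5 to 10, and 2.44% and 6.15% with over 10, where the library labelled oil had 41 cells. The log2 ratios between the libraries were 1.45 (0.84 to 2.06), 1.13 (0.69 to 1.56), 1.52 (0.73 to 2.33) and 1.33 (-1.07 to 3.85). These lie around the 1.41 of all cells, the last on 1 positive cell in the library labelled oil. Kit was in 25.8% and 24.1%, 24.8% and 23.8%, 29.5% and 27.6%, and 19.5% and 30.2% of the same classes.

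The Cd34 difference was nearly as large with the makeup of the classes held equal. Over 16 strata, formed by the 4 cycle classes, Cpa3 detected or not and Isg15 detected or not, the Mantel-Haenszel log2 ratio of Cd34 was 1.32 (1.02 to 1.63), a 2.5-fold difference, against 1.41 without strata. Cd34 was higher in the library labelled tamoxifen in 11 strata, lower in 4 and equal in 1, and 8 of the strata had under 100 cells in a library. Kit gave -0.044 (-0.13 to 0.042), with 7 strata higher and 9 lower.

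The genes most like Cd34 and Kit across cells included the mast cell genes Cpa3, Cma1 and Mcpt1. Likeness was the log2 ratio of CPM in cells with over cells without the gene, by the smaller value of both libraries, among genes of at least 50 CPM in each. Of 3164 genes, 15 (0.474%) were at least 1.5-fold higher and 3 (0.0948%) at least 1.5-fold lower in Cd34-positive cells of both libraries. For Kit, 5 of 3163 genes (0.158%) were higher and 0 (0%) lower. All UMIs of the classified cells were used, and the classes come from 1 draw.

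The 8 genes most like Cd34 were Vim, Mcpt1, Fcer1a, Serpinb1a, Cma1, Cyp11a1, Cpa3 and Cd63, and 7 of the 8, all but Cma1, were found in another draw too. Cpa3 was at 165 CPM in Cd34-positive and 95.7 CPM in Cd34-negative cells of the library labelled oil (log2 ratio 0.79, 0.56 to 1.01), and at 443 and 142 CPM in the library labelled tamoxifen (1.64, 1.55 to 1.73). Cma1, a mast cell chymase, had log2 ratios of 0.83 (0.72 to 0.93) and 1.58 (1.52 to 1.63), and Fcer1a, a chain of the IgE receptor, 1.34 (1.2 to 1.49) and 0.95 (0.86 to 1.04). Vim, which encodes the filament protein vimentin, had 1.08 (0.91 to 1.25) and 1.32 (1.22 to 1.41). Serpinb1a, an inhibitor of granule proteases, had 0.89 (0.62 to 1.15) and 1.53 (1.34 to 1.72).

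The 8 genes most like Kit were Serpinb1a, Cma1, Cpa3, Mcpt1, Vim, Cyp11a1, Lgals3 and Id2, of which 6 are also among the 8 of Cd34 and 7, all but Id2, were found in another draw. Cpa3 had log2 ratios of 0.84 (0.76 to 0.92) and 1.41 (1.35 to 1.47), Cma1 0.86 (0.82 to 0.90) and 1.15 (1.12 to 1.19), and Serpinb1a 0.86 (0.77 to 0.96) and 1.18 (1.05 to 1.30). Both genes share the cells that enter these ratios with each other in part, and Cd34-positive cells had Kit at 143 and 150 CPM against 95.4 and 95.5 CPM in Cd34-negative cells, log2 ratios of 0.59 (0.33 to 0.83) and 0.65 (0.50 to 0.80). Mcpt1 and Mcpt2 are close paralogs between which reads can be split. Mcpt1 was lower in the library labelled tamoxifen as a whole (180 and 81.9 CPM), while it was higher in Cd34-positive cells of each library.

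**Figure D4:**
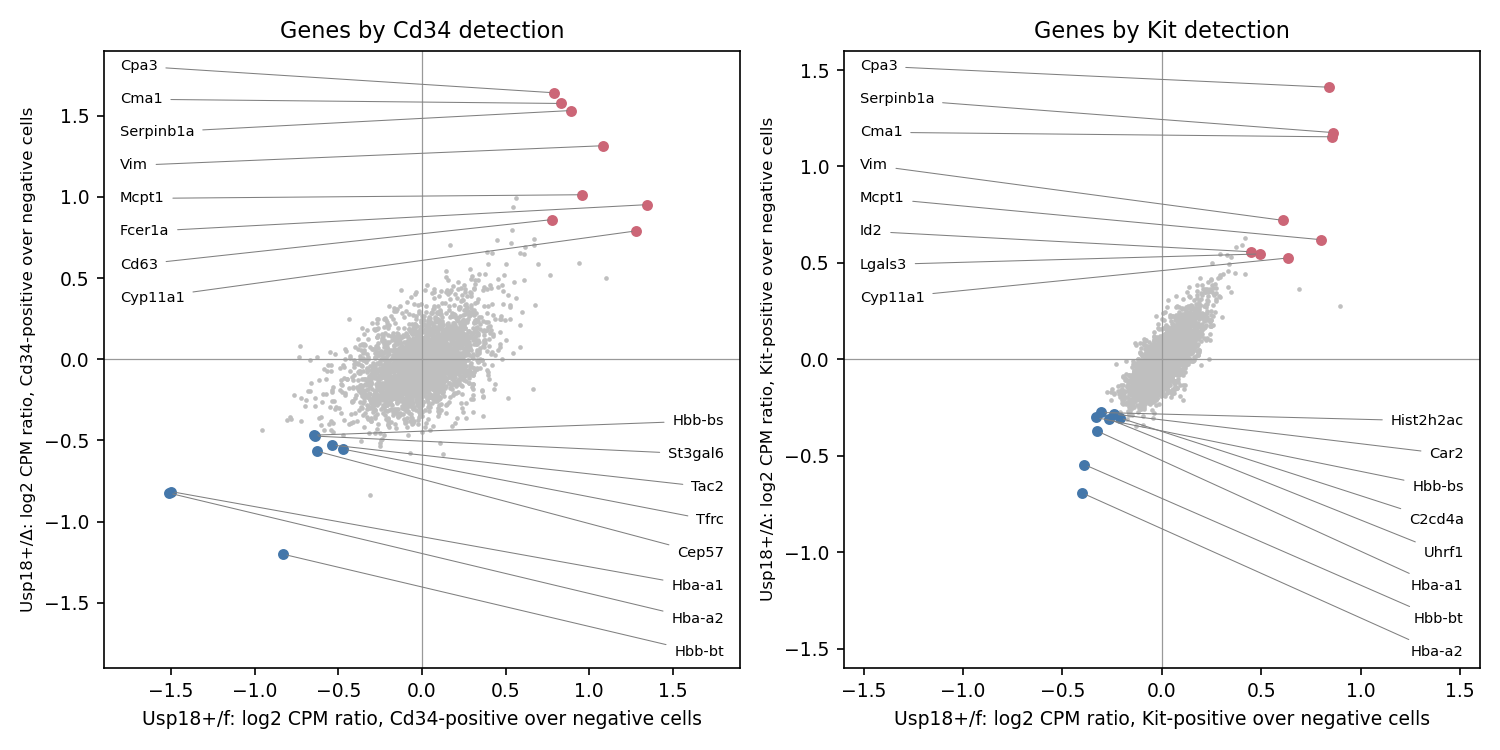
Log2 ratio of CPM in cells with over cells without Cd34 (left) or Kit (right), in the library labelled oil (horizontal axis) and the library labelled tamoxifen (vertical axis). Each point is a gene of at least 50 CPM in each library, with the 8 genes most like the member in red and the 8 least like it in blue. Cpa3, Cma1 and Serpinb1a lie far out on both axes for both genes, and haemoglobin genes lie at the other end.

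Least like Cd34 were Hbb-bt, Hba-a2, Hba-a1, Cep57, Tac2, St3gal6, Tfrc and Hbb-bs, of which 4, the haemoglobin genes, were found in another draw. Hba-a1 was at 372 CPM in Cd34-positive and 1052 CPM in Cd34-negative cells of the library labelled oil, and at 517 and 909 CPM in the library labelled tamoxifen. The count of lower genes depends on the draw, with 20 genes in the other one, 3 of them shared. Least like Kit were Hba-a2, Hbb-bt, Hba-a1, Hbb-bs, Hist2h2ac, Uhrf1, Car2 and C2cd4a, with log2 ratios no lower than -0.69. Globin genes are near-identical pairs, so values of single members are uncertain.

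Genes of KIT signaling were at similar levels in both libraries. Of 30 genes of the KIT ligand and its signaling, 27 had a mean of at least 5 CPM and 0 were past 1.5-fold in either direction between the libraries, where 1.17% of all genes were higher and 0.18% lower, so a count of 0 is near the background. Their median log2 ratio was 0.034, with a range of -0.071 to 0.34. The largest was Cish, a STAT5 target that restrains cytokine signaling, at 38.9 and 49.3 CPM. Kitl, the gene of the KIT ligand, had 0 and 1 UMIs. In Kit-positive cells, 9 of the 10 measured pathway genes were higher in both libraries, as were 37.3% of all genes. None was past 1.5-fold in both libraries, and the medians were 0.068 and 0.10 against 0.0024 and -0.013 over all genes.

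Of the CD34 family and its partners, Podxl, the related sialomucin podocalyxin, was at 82.1 and 82.7 CPM, and Crkl, an adaptor that binds CD34, at 40.6 and 42.1 CPM, neither past 1.5-fold. Sele, the gene of E-selectin, was at 0 in both libraries, below 0.0517 and 0.0504 CPM, the level of 3 UMIs. Among 30 progenitor genes, 13 had a mean of at least 5 CPM, and Cd48 (16.4 and 25.3 CPM, log2 ratio 0.62, 0.50 to 0.74) and Fcgr3 (9.45 and 19.97 CPM, log2 ratio 1.08, 0.93 to 1.23) were past 1.5-fold, both higher, where 1.17% of all genes were higher and 0.18% lower. Gata2 (203 and 184 CPM), Runx1 (568 and 539 CPM) and Myb (237 and 226 CPM), transcription factors of progenitors, were not. Of the myeloid and stem cell genes in the list, Mpo, the myeloid peroxidase, had 1 and 0 UMIs, Cebpa had 1 and 0, and Elane, Flt3, Sox4 and Hoxa9 had none, while the granule proteases Ctsg (291 and 381 UMIs, 5.01 and 6.40 CPM) and Prtn3 (82 and 61 UMIs) were detected. Below a mean of 5 CPM, Ly6a, the gene of the stem cell antigen Sca-1, had 53 and 221 UMIs (log2 ratio 2.02, 1.59 to 2.49), and Erg, a transcription factor of stem cells, had 199 and 335 UMIs (log2 ratio 0.72, 0.46 to 0.98). Not all genes of the list went this way. Lmo2 (log2 ratio -0.21, -0.26 to -0.17), Hlf (-0.21, -0.32 to -0.10) and Lyl1 (-0.14, -0.23 to -0.057) were lower, none past 1.5-fold. Slamf1 had 58 and 66 UMIs (log2 ratio 0.15, -0.38 to 0.69). In Cd34-positive cells, none of 8 measured progenitor genes was past 1.5-fold in both libraries, and 4 of 8 measured mast cell and basophil genes were, all higher, where 0.474% of all genes were higher and 0.0948% lower. For the progenitor genes, a count of 0 is near that background.

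Cd34 marks endothelial cells too, so markers of other cell types were counted in the 302 and 789 Cd34-positive cells without thinning. Cdh5, Kdr, Tek, Emcn and Cldn5, 5 defining endothelial genes, were at 0 in both. Cdh5, Tek, Emcn and Cldn5 were at 0 over all cells too, and Kdr had 4 and 1 UMIs. Their 0 is thus not particular to Cd34-positive cells. Pecam1 (11 and 12 UMIs over all cells) and Tie1 (1 and 1), which are as defining, were at 0 in Cd34-positive cells of the library labelled oil but not of the library labelled tamoxifen. Vwf, also of the list, had 152 and 146 UMIs over all cells and was detected in Cd34-positive cells of both libraries. The summed list of 10 endothelial genes was 178 CPM in Cd34-positive and 177 CPM in Cd34-negative cells of the library labelled oil, and 156 and 165 CPM in the library labelled tamoxifen, and only Egfl7 (160 and 148 CPM over all cells) and Plvap (14.3 and 13.1 CPM) of that list had a mean of at least 5 CPM. All 7 neutrophil genes were at 0 in Cd34-positive cells of both libraries. Over all cells these genes had 2 UMIs in the library labelled oil and 1343 in the library labelled tamoxifen. Of the latter, 1319 were in a single cell, so this 0 says little about Cd34-positive cells. The 8 macrophage genes had 0 UMIs in Cd34-positive cells of the library labelled oil and 31 UMIs in those of the library labelled tamoxifen, 4.79 CPM against 8.18 CPM in Cd34-negative cells. The 10 B and T cell genes had 24 and 256 UMIs, 8.09 and 39.6 CPM against 7.44 and 15.1 CPM in Cd34-negative cells, with Ms4a1, Cd3e, Cd3d, Cd4 and Cd8a at 0. Nkg7, a gene of cytotoxic granules, had most UMIs of that list over all cells, with 418 and 1034. The 15 mast cell and basophil genes were at 4750 and 5120 CPM in Cd34-positive cells against 3900 and 3865 CPM in Cd34-negative cells, and the 10 erythroid genes at 4642 and 4724 CPM against 6886 and 7228 CPM. Median depths of Cd34-positive and Cd34-negative cells kept by thinning were 7876.5 and 8899 UMIs in the library labelled oil and 7116 and 8304 UMIs in the library labelled tamoxifen. The part of these differences in makeup and depth in the Cd34 values was not tested.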

How the data were processed

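Single-cell libraries were prepared with the 10x Genomics 3′ V3 chemistry, and per the labels and file headers the authors aligned and counted reads with Cell Ranger 3.0.2 on mm10 and used Seurat. The deposited values are raw UMI counts per gene and cell for 2 libraries, of 3 pooled mice each, with 0 columns of other samples. Annotation and strand settings are not given in the sources used here. Barcodes with fewer than 500 genes or over 10% mitochondrial UMIs were left out. Doublets were scored with Scrublet in scanpy 1.11.5 (expected rate 0.06). Its automatic threshold marked 3 and 2 cells, so cells above the 95th percentile of the score in each library, 340 and 333, were removed.

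Levels are summed UMIs per 1000000 UMIs (CPM) with exact Poisson intervals and exact conditional intervals of their ratios. Shares are of cells with at least 1 UMI after 1 seeded random thinning to 3000 UMIs, with Clopper-Pearson intervals, score intervals for ratios and Greenland-Robins intervals for Mantel-Haenszel ratios, all at 95% (numpy 2.4.6, scipy 1.17.1, pandas 2.3.3, python 3.11.15). They cover counting error only, and no p-value was computed because each group is 1 library. The interval code was tested on simulated data. Shallower cells, 456 and 350, were left out of thinned values. The genes named are Cd34, Kit, Usp18, Isg15 and Cpa3, members of gene lists, and, for Cd34 and Kit each, the 8 genes most and the 8 least like it by the weaker of both libraries' ratios in positive over negative cells, among genes of at least 50 CPM. A list member counts as moved only past 1.5-fold, among genes of at least 5 mean CPM. Genes named for a count of UMIs near 0, Ctsg, Prtn3, Ly6a, Erg, Lmo2, Hlf, Lyl1, Slamf1, Nkg7, Egfl7, Plvap and Vwf were chosen after their values were seen. The members and lists were chosen with earlier results of these data known. Gene positions are from GENCODE vM21, which 30934 of 31053 identifiers matched, and promoter sequences from RefSeq (GRCm38.p6). Alternatives changed the cell filters, thinning, scaling, classes and minimum level.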

Additional observations from a re-analysis of the deposited data

Results flagged for a closer look

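The relation of Isg15 to Cd34 had opposite signs in the 2 libraries. Cells with Isg15 over cells without it gave a log2 ratio of Cd34 shares of 0.53 in the library labelled oil, on 9 positive cells, and of -0.37 in the library labelled tamoxifen. For Kit the values were 0.038 and -0.022. The difference between the libraries was not tested, and all 4 intervals span 0. In another draw of the thinning the Cd34 value of the library labelled oil was -0.46, and over all draws it was -0.19.

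Cd34 was also higher in the library labelled tamoxifen among barcodes that the filters had removed. In barcodes with over 10% mitochondrial UMIs it was at 24.8 CPM (17.0 to 35.1) in 404 barcodes of the library labelled tamoxifen and at 7.12 CPM (2.86 to 14.7) in 290 barcodes of the library labelled oil. In cells removed for their doublet score it was at 21.2 CPM (17.1 to 26.0) in 333 cells and at 5.02 CPM (3.18 to 7.54) in 340 cells.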

How the results depend on the processing

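The Cd34 level ratio between the libraries stayed between 1.39 and 1.59 on the log2 scale, its stratified share ratio between 1.09 and 1.49, and its share ratio between 1.12 and 1.97, the highest when 2 or more UMIs were required. The Kit level ratio ran from 0.066 to 0.27, the latter as a mean of per-cell CPM, its stratified share ratio from -0.068 to 0.018, and its share ratio from -0.039 to 0.38, at 0.11 with thinning to 1500 UMIs and 0.38 with 2 or more UMIs required. The ratio of cells with both genes was 2.52 at 1500 UMIs, 1.07 at 5000, 1.18 without thinning and 2.86 with 2 or more UMIs. Without thinning, the order of low against cycling cells was reversed for Cd34 (-0.16) and Kit (-0.49) in the library labelled oil and for Kit (-0.086) in the library labelled tamoxifen. The cause of these shifts was not tested. Genes at least 1.5-fold higher in Cd34-positive cells numbered 6 with classes from all UMIs and 29 at 20 CPM, and lower genes 5 at a 7% mitochondrial limit, 20 in another draw and 8 at 20 CPM. For Kit, 1 gene was higher with classes from all UMIs, 9 at 20 CPM, and 4 were lower with classes from all UMIs. Of 234 alternatives for shares between the libraries within a class, 227 kept the sign.

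No paired analysis was possible because a group holds only 1 library, and leaving out a library was not possible for the same reason. Phases from scanpy scores were run for the stratified ratios only. Depth limits the Cd34 values: classes with few positive cells in the library labelled oil, such as the 9 with Isg15, move with the draw.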

Other observations

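Kept cells with under 2% mitochondrial UMIs, 313 in the library labelled oil and 61 in the library labelled tamoxifen, had median depths of 1068 and 1236 UMIs. Cd34 was at 10.2 CPM (2.78 to 26.1) and 10.6 CPM (0.27 to 59.3) in them, on 4 and 1 UMIs, and Kit at 140 CPM (106 to 183) and 149 CPM (81.5 to 250). The higher Cd34 of the library labelled tamoxifen was not detectable at this depth in these cells.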
